A study of Homo sapiens with 12 samples.

Results

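The replication-dependent histone genes are the genes whose symbols name the clustered copies of the linker histone H1 (H1-1 to H1-6) and of the core histones H2A (H2AC), H2B (H2BC), H3 (H3C) and H4 (H4C). The symbol pattern finds 66 of the 43236 gene symbols in the files, namely 6 H1, 16 H2A, 17 H2B, 13 H3 and 14 H4 genes. On GRCh38.p14, 55 of them lie on chromosome 6 and 11 on chromosome 1. MNNG/HOS (HOS-MNNG in the labels) is a chemically transformed human osteosarcoma cell line. Cells were given the solvent DMSO or the small molecule NXP800 for 6 h or 24 h, with 3 libraries in each of the 4 groups. No other treatment or genetic change separates the groups, and the labels do not say whether replicates came from separate cultures. The study's methods speak of independent experiments for its results in general, so a p-value measures the spread between these libraries, which may in part be technical. The comparison asks how the treatment moves the histone genes at each time point.

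Replication-dependent histone genes supply the proteins that package newly made DNA, and they are normally transcribed during S phase in a nuclear structure called the histone locus body. Their mRNAs are the only known animal mRNAs that usually end without a poly(A) tail. They end just after a short stem-loop, which the stem-loop binding protein SLBP binds, and they are degraded quickly when DNA synthesis stops. Some of these genes can also give a longer, polyadenylated transcript. The libraries were made from poly(A) RNA with a kit for mRNA, so a count reflects the captured fraction of a histone transcript and not its whole pool.

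The stem-loop was found in 64 of the 66 genes, as a perfect 6-base inverted repeat around a 4-base loop within 150 bases after the stop codon, in 8 different forms. The exceptions were H2AC11 and H2AC15, though this search would miss a stem-loop with a mismatch. The 4 most frequent forms are shown because they mark the end at which these mRNAs normally stop, written as DNA with the paired stem in capitals. They were carried by 38, 9, 9 and 4 genes in the order printed. A position is that of the first gene named on GRCh38.

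H1-2 (chr6:26055744-26055759, minus strand) and 37 other genes of all families but H4: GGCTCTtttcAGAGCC

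H4C4 (chr6:26188715-26188730, minus strand) and 8 other H4 genes: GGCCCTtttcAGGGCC

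H2BC12 (chr6:27146366-27146381, minus strand) and 8 other H1, H2A, H2B and H3 genes: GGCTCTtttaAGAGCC

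H4C15 (chr1:149860769-149860784, minus strand) and 3 other H4 genes: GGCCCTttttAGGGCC

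The stem-loop began 22 to 67 bases after the stop codon. In 51 genes, here called short, neither RefSeq nor GENCODE carries the transcript more than 100 bases past the stem-loop. For H2AC11 and H2AC15, which are among the 51, the end of the shortest single-exon transcript in GENCODE took the place of the stem-loop. RefSeq carries it further in 7 genes (H2BC4, H2BC5, H2BC12, H2BC18, H2BC21, H3C6 and H4C15) and GENCODE alone does so in 8 others. For H2BC12, at chr6:27138293-27146858 on the minus strand, the RefSeq gene runs 8073 bases past the stem-loop. The authors counted on RefSeq genes, so reads on a longer end are part of a gene's count, and reads of the 2 ends are not separated in the values.

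Of the 66 genes, 34 had enough counts to be tested, and the remaining 32 reached at most 16 counts in any library. These 32 held 0.665% of all counts on the 66 genes, and 5 of them (H2AC1, H2BC1, H3C14, H3C15 and H4C6) were at 0 in every library. In H3C14 and H3C15, 99.1% and 100% of the 100-base windows of the short transcript also occur in another histone gene. The share was 100% in H2AC18 and H4C14, 99.8% in H2AC19 and 90.7% in H4C11. Reads there cannot be placed at 1 gene, so low counts of these genes need not mean low levels. All 7 genes that are extended in RefSeq were tested, against 22 of the 51 short genes. Since a gene can pass the filter through the group in which it is high, counts below are given of the 34 tested genes only.

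The 12 libraries held between 30810614 and 31947656 counts on genes, and none was a copy of another. The 66 histone genes took 0.0241% to 0.0444% of them. Reads on no gene were 6.66% to 8.14% of the read pairs at 6 h and 2.73% to 3.67% at 24 h, so levels were compared only within a time point. Of 10 markers of mesenchymal or osteosarcoma cells 8 passed the filter (all but COL1A2 and ALPL), against 2 of 10 markers of other cell types (EPCAM and PECAM1). KRT20 was at 0 in every library.

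The summed level of the 66 genes was higher at 6 h of NXP800. The unit is CPM, counts per 1e+06 counts of the library, scaled by the trimmed mean of M-values (TMM). The DMSO libraries had 293, 249 and 260.4 CPM and the NXP800 libraries 428, 344 and 355 CPM at 6 h. At 24 h the values were 259, 255 and 274 CPM in DMSO and 299.95, 269.7 and 281 CPM in NXP800. The 6 h groups did not overlap, and the 24 h groups did. The mean ratio of NXP800 to DMSO was 1.399-fold at 6 h and 1.08-fold at 24 h, with an exact permutation p of 0.1 (two-sided, 3 against 3, the smallest this design allows) at 6 h and 0.2 at 24 h.

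**Figure D1:**
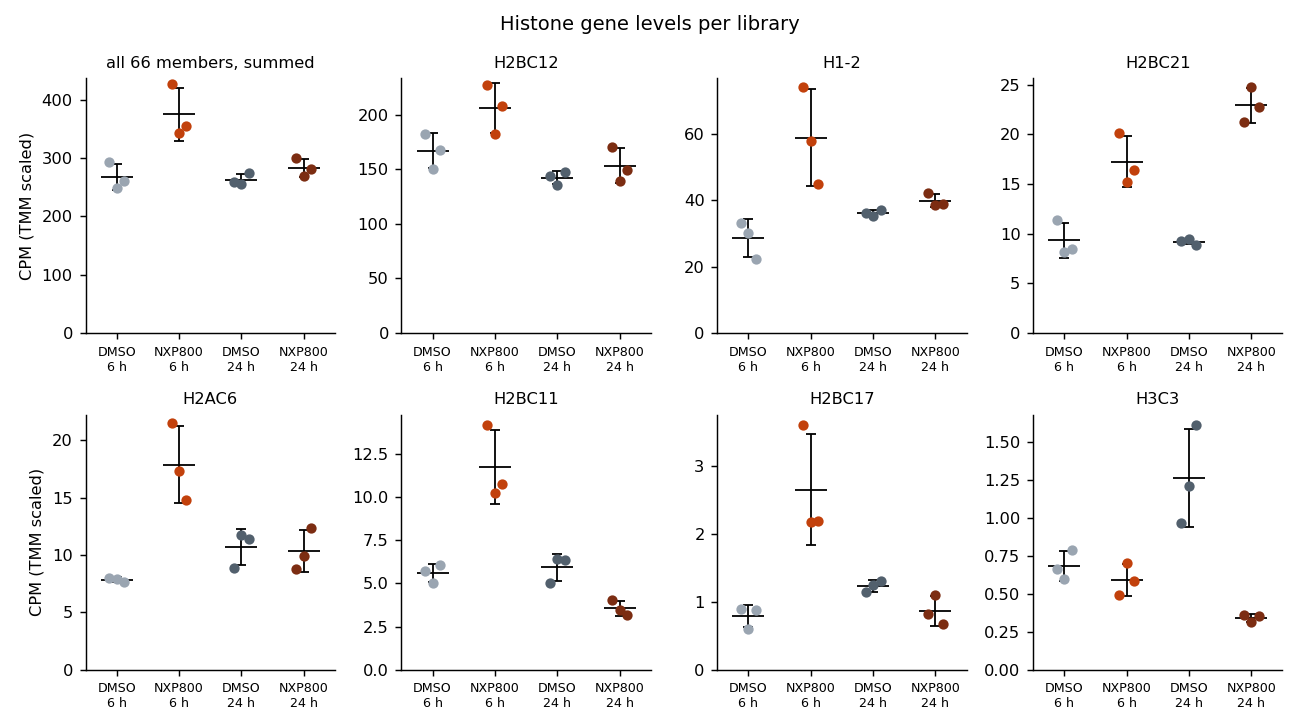
Levels in TMM-scaled CPM (y axes, each from 0) in each library of the 4 groups (x axes), for the 66 histone genes summed and for 7 of them, where points are libraries and bars the mean ± SD of 3. At 6 h the 3 NXP800 libraries lie above the DMSO libraries for the sum, H1-2, H2BC21, H2AC6, H2BC11 and H2BC17, while at 24 h H2BC21 is higher and H2BC11, H2BC17 and H3C3 are lower in NXP800.

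H2BC12 and H1-2 held most of these reads. H2BC12 had 51.6% to 64.5% and H1-2 8.54% to 17.3% of the counts on the 66 genes, in reads that are not corrected for transcript length. Without H2BC12 the summed ratio was 1.68-fold at 6 h and 1.08-fold at 24 h. Without both it was 1.53-fold and 1.08-fold. For H2BC12 itself the fitted change at 6 h was 1.23-fold, so the sum is moved less by H2BC12 than by the rest.

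At 6 h, 13 of the 34 tested genes rose and 1 fell (edgeR's quasi-likelihood test, Benjamini-Hochberg adjusted p below 0.05 over 15979 genes). Of all genes tested, 25% rose and 27.8% fell in this comparison. The median log2 fold change of the 34 genes was 0.47, against -0.046 over all genes tested, and 27 of the 34 had a positive value. The genes that rose come from every family, with 2 of 3 H1, 3 of 9 H2A, 6 of 10 H2B, 1 of 6 H3 and 1 of 6 H4 genes. H4C4 was the gene that fell, and H2AC17 (-0.44, adjusted p = 0.0783) joined it without DMSO 6 h replicate 3 (-0.56). With the replicate number as a block 16 genes rose at 6 h, where H2AC11 (adjusted p = 0.0224), H2BC18 (adjusted p = 0.02295) and H3C4 (adjusted p = 0.0301) joined the 13. H3C4 had 11, 7 and 6 counts in DMSO and 20, 18 and 10 in NXP800, with overlap, and without the block its log2 fold change was 0.96 (adjusted p = 0.0824).

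At 24 h, 5 of the 34 rose and 9 fell. Of all genes tested, 27.5% rose and 28.6% fell. The median of the 34 genes was -0.10, against -0.0033 over all genes. The 5 genes that rose were H1-4 and 4 H2B genes, and the 9 that fell were H2AC8, H2AC16, H2AC17, H2BC11, H2BC13, H3C3, H3C8, H3C10 and H4C4. With the replicate number as a block, 8 genes rose at 24 h, where H1-2 (adjusted p = 0.0443), H4C8 (adjusted p = 0.0337) and H4C15 (adjusted p = 0.0163) joined the 5, and 11 fell, where H2AC14 (adjusted p = 0.0169) and H2AC20 (adjusted p = 0.00484) joined the 9. Leaving out DMSO 24 h replicate 2 or 3 left 2 genes that rose, and leaving out NXP800 24 h replicate 2 left 3.

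The response changed between the time points in 1 direction. The difference of the responses, the log2 fold change at 24 h minus that at 6 h, was negative past the threshold for 9 of the 34 genes and positive for 0. At an unadjusted p below 0.05 in edgeR 1 gene (H2BC21) had a positive difference, and DESeq2 called 0. Of all genes tested, 13.8% had a negative and 12% a positive difference. The libraries of the 2 time points also differ in their share of reads on no gene, and its part in these differences was not tested. The 9 genes were H1-2, H2AC6, H2AC8, H2AC16, H2BC11, H2BC17, H3C3, H3C8 and H3C10. With the replicate block 15 differences were negative and 1, that of H2BC21 (adjusted p = 0.00419), was positive. The 6 that joined were H2AC15, H2AC20, H2BC4, H2BC8, H2BC12 and H4C8, with adjusted p between 0.00346 and 0.0474. Of the 34 genes, 4 rose at both times (H1-4, H2BC4, H2BC15 and H2BC21), 1 fell at both (H4C4), and 2 rose at 6 h and fell at 24 h (H2AC8 and H2BC11). A positive difference without the block passed the threshold for 1 gene when NXP800 6 h replicate 1 was left out.

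**Figure D2:**
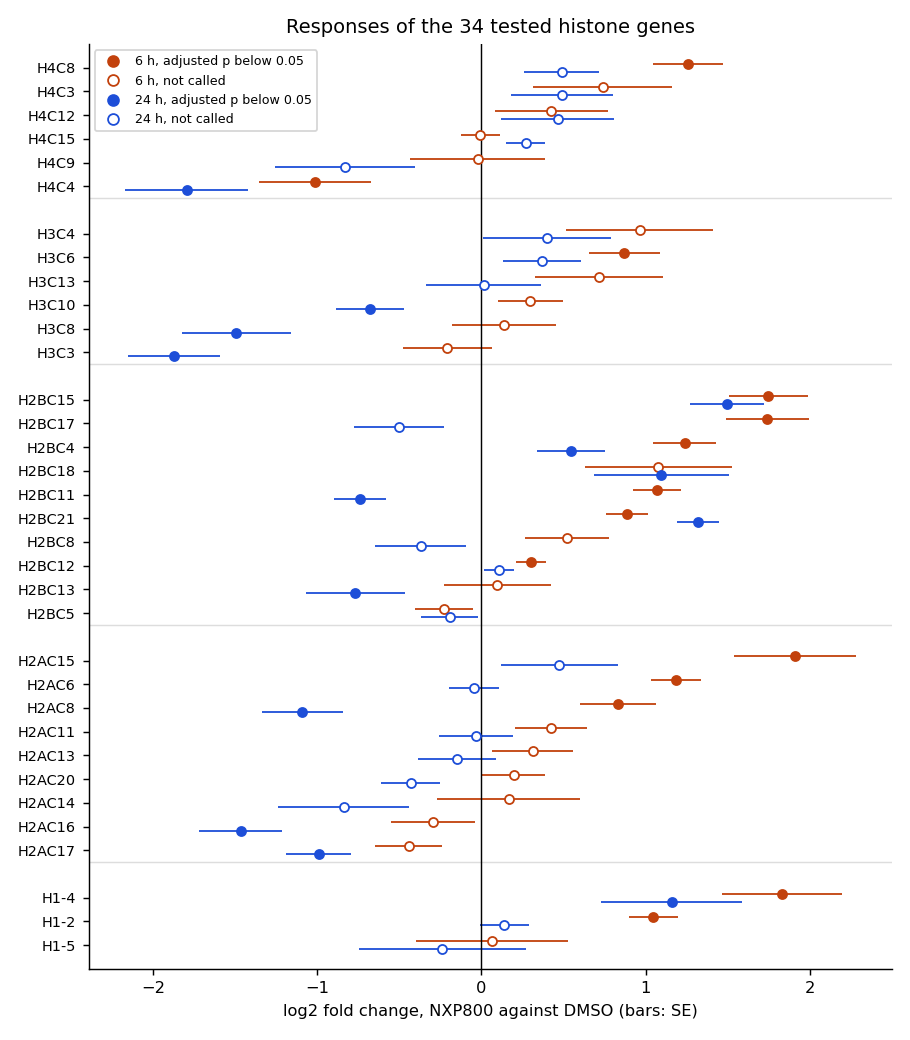
Log2 fold change of NXP800 against DMSO (x axis) with its SE, for the 34 tested histone genes by family (y axis), at 6 h and 24 h, with filled symbols for an adjusted p below 0.05. At 6 h 13 filled symbols lie above 0 and 1 below, and at 24 h 5 lie above and 9 below.

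H1 genes encode the linker histone, which binds DNA between nucleosomes. H1-2 was at 33.2, 30.1 and 22.2 CPM in DMSO and 73.997, 57.7 and 44.7 CPM in NXP800 at 6 h, and at 36.2, 35.2 and 37.05 and 42.2, 38.4 and 38.96 CPM at 24 h. NXP800 libraries were higher without overlap at both times, but the size of the difference was not the same. H1-2 rose at 6 h (log2 fold change 1.04, SE 0.149, adjusted p = 2.24e-05), while at 24 h it did not pass the test (log2 fold change 0.14, SE 0.149, adjusted p = 0.442, with adjusted p = 0.0443 under the replicate block). H1-4 was far less abundant, at 0.253, 0.126 and 0.273 CPM in DMSO and 0.952, 0.734 and 0.675 CPM in NXP800 at 6 h, and 0.268, 0.168 and 0.103 and 0.561, 0.376 and 0.287 CPM at 24 h. It rose at 6 h (log2 fold change 1.83, SE 0.365, adjusted p = 5.25e-04) and at 24 h (log2 fold change 1.16, SE 0.431, adjusted p = 0.0308). DESeq2 did not call the 24 h rise (adjusted p = 0.0893). The 24 h call of H1-4 was lost without DMSO 24 h replicate 2 (1.11), DMSO 24 h replicate 3 (0.89) or NXP800 24 h replicate 1 (0.87), with the log2 fold change in brackets. H1-5 had 6 to 18 counts per library, and its groups overlapped at both times (adjusted p = 0.915 and 0.7102).

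H2A and H2B form a dimer that is added to each nucleosome. Of the H2A genes, H2AC6 had the most reads. Its level was 8.02, 7.95 and 7.63 CPM in DMSO and 21.5, 17.3 and 14.8 CPM in NXP800 at 6 h, and 8.87, 11.7 and 11.4 and 8.75, 9.88 and 12.4 CPM at 24 h. It rose at 6 h (log2 fold change 1.18, SE 0.1496, adjusted p = 6.35e-06), and at 24 h the groups overlapped (log2 fold change -0.04, adjusted p = 0.819). H2AC20, on chromosome 1, was at 2.82, 2.84 and 1.79 CPM in DMSO and 2.92, 3.37 and 2.24 CPM in NXP800 at 6 h, and at 4.65, 4.77 and 4.74 and 3.83, 3.104 and 3.57 CPM at 24 h. The 24 h groups of H2AC20 did not overlap, and its fold change (-0.43) lay at the threshold (adjusted p = 0.05001, or 0.00484 with the replicate block). H2AC11 was at 1.996, 1.797 and 1.58 CPM in DMSO and 2.52, 2.23 and 2.46 CPM in NXP800 at 6 h, apart but short of the threshold (log2 fold change 0.42, adjusted p = 0.119, or 0.0224 with the block). At 24 h it was at 2.07, 1.41 and 2.33 and 1.98, 1.32 and 2.39 CPM, with groups that overlapped.

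The other H2A genes that passed the test moved in both directions. H2AC15, in which the search found no perfect stem-loop, had 4 to 8 counts in DMSO and 14 to 27 in NXP800 at 6 h (log2 fold change 1.91, SE 0.371, adjusted p = 4.24e-04). H2AC8 was at 1.204, 1.04 and 0.911 CPM in DMSO and 1.904, 2.26 and 1.44 CPM in NXP800 at 6 h, where it rose (log2 fold change 0.83, SE 0.233, adjusted p = 0.00672). At 24 h it was at 1.54, 1.58 and 1.96 and 0.759, 0.596 and 1.02 CPM and fell (log2 fold change -1.09, SE 0.248, adjusted p = 0.00133). The order of the groups of H2AC8 thus turned between the times, with no overlap at either. H2AC16 (-1.47, adjusted p = 1.21e-04) and H2AC17 (-0.99, adjusted p = 4.12e-04) fell at 24 h. In GENCODE 71.0% of the H2AC17 exon bases are also annotated to H3C12. The RefSeq genes, on which the counts were made, do not overlap (chr6:27892699-27893185 for H2AC17 and chr6:27890315-27890826 for H3C12). H2AC13 and H2AC14 share 58.8% and 61.8% of their 100-base windows with each other and were not called (at 24 h H2AC14 had -0.84, with an adjusted p of 0.0169 under the block).

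H2B genes made up most of the captured reads. H2BC12 was at 183, 151 and 168 CPM in DMSO and 228, 182 and 208 CPM in NXP800 at 6 h, and at 144, 136 and 147 and 171, 139 and 149.6 CPM at 24 h. Its groups overlapped at both times. It passed the test at 6 h with the smallest change of the genes that rose (log2 fold change 0.30, SE 0.0911, adjusted p = 0.0108), and not at 24 h (0.11, adjusted p = 0.339). The 6 h call was lost without DMSO 6 h replicate 2 (0.23) or NXP800 6 h replicate 1 (0.22). H2BC21, on chromosome 1, was at 11.4, 8.13 and 8.48 CPM in DMSO and 20.1, 15.2 and 16.5 CPM in NXP800 at 6 h, and at 9.27, 9.45 and 8.89 and 21.3, 24.8 and 22.8 CPM at 24 h. Every NXP800 library lay above the DMSO libraries at both times (log2 fold change 0.89, SE 0.128, adjusted p = 2.50e-05 at 6 h, then log2 fold change 1.32, SE 0.128, adjusted p = 3.04e-07). H2BC5 was at 11.5, 10.4 and 9.33 CPM in DMSO and 10.7, 6.85 and 9.09 CPM in NXP800 at 6 h, and at 9.23, 9.95 and 14.2 and 8.55, 9.22 and 11.4 CPM at 24 h. Its groups overlapped and it passed neither test (adjusted p = 0.291 and 0.364), with log2 fold changes of -0.23 and -0.19.

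Of the less abundant H2B genes, H2BC4 rose at 6 h (log2 fold change 1.24, SE 0.191, adjusted p = 4.93e-05) and at 24 h (log2 fold change 0.54, SE 0.206, adjusted p = 0.0331). In GENCODE, on either strand, H2BC4 shares 30.9% of its exon bases with other genes, HFE among them. The counts rest on RefSeq, where H2BC4 runs 10302 bases past the stem-loop, against 37155 in GENCODE. What this overlap means for its counts was not tested. The 24 h call of H2BC4 was lost without DMSO 24 h replicate 2 (0.58) or 3 (0.35). It was also lost without NXP800 24 h replicate 1 (0.35) or 2 (0.55), and in the libraries of the time point alone (adjusted p = 0.0696). H2BC15 was at 0.507, 0.599 and 0.638 CPM in DMSO and 2.06, 1.59 and 2.24 CPM in NXP800 at 6 h, and at 1.17, 0.942 and 0.652 and 2.34, 2.98 and 2.49 CPM at 24 h. It rose by 1.75 at 6 h (adjusted p = 1.65e-05) and by 1.49 at 24 h (adjusted p = 3.07e-05).

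H2BC11 and H2BC17 rose at 6 h, while their NXP800 libraries lay below the DMSO libraries at 24 h. H2BC11 was at 5.73, 5.01 and 6.05 CPM in DMSO and 14.2, 10.2 and 10.8 CPM in NXP800 at 6 h, and at 5.02, 6.42 and 6.35 and 4.03, 3.48 and 3.16 CPM at 24 h. Its log2 fold change was 1.07 (adjusted p = 1.38e-05) and then -0.74 (adjusted p = 8.56e-04). H2BC17 was at 0.887, 0.599 and 0.881 CPM in DMSO and 3.59, 2.17 and 2.18 CPM in NXP800 at 6 h, and at 1.14, 1.24 and 1.305 and 0.825, 1.097 and 0.6701 CPM at 24 h. It rose at 6 h (1.74, adjusted p = 2.80e-05), and its 24 h value of -0.50 did not pass the test (adjusted p = 0.12999).

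H2BC18 and H2BC13 rest on few reads, and DESeq2 called neither at 24 h (adjusted p = 0.0747 and 0.105). With library size only, edgeR did not call H2BC13 at 24 h either (adjusted p = 0.0608). H2BC18 had 4 to 30 counts per library and rose at 24 h (1.09, adjusted p = 0.0326), a call that was lost without DMSO 24 h replicate 2 (1.16), DMSO 24 h replicate 3 (0.84), NXP800 24 h replicate 2 (0.89) or NXP800 24 h replicate 3 (1.09). At 6 h H2BC18 missed the threshold (log2 fold change 1.08, adjusted p = 0.0526, or 0.02295 with the block), and without DMSO 6 h replicate 1 its value was 1.90. H2BC13 fell at 24 h (-0.77, adjusted p = 0.0391), a call that was lost without DMSO 24 h replicate 1 (-0.69), DMSO 24 h replicate 2 (-0.84), DMSO 24 h replicate 3 (-0.78) or NXP800 24 h replicate 2 (-0.55).

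H3 and H4 form the core that is laid down first on new DNA. H3C10 was at 3.07, 2.995 and 2.52 CPM in DMSO and 3.81, 4.04 and 2.702 CPM in NXP800 at 6 h, with overlap (adjusted p = 0.223), and at 3.04, 2.79 and 4.36 and 2.08, 1.82 and 2.46 CPM at 24 h. It fell at 24 h (log2 fold change -0.68, SE 0.207, adjusted p = 0.0103), a call that was lost without DMSO 24 h replicate 3 (-0.46) or NXP800 24 h replicate 2 (-0.55). H3C6 was at 1.81, 1.73 and 1.79 CPM in DMSO and 3.5003, 3.396 and 2.86 CPM in NXP800 at 6 h, and at 0.8698, 1.78 and 1.51 and 1.42, 2.23 and 1.72 CPM at 24 h. It was the H3 gene that rose at 6 h (log2 fold change 0.87, SE 0.216, adjusted p = 0.00293), and its groups overlapped at 24 h (adjusted p = 0.199). H3C8 was at 0.729, 0.725 and 0.972 CPM in DMSO and 1.07, 0.826 and 0.768 CPM in NXP800 at 6 h, and at 0.803, 1.51 and 1.68 and 0.561, 0.596 and 0.255 CPM at 24 h. It overlapped at 6 h (adjusted p = 0.744) and fell at 24 h (log2 fold change -1.49, SE 0.332, adjusted p = 0.00115).

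The 24 h fall of H3C3 had the largest size among the 34 genes. It had 29, 36 and 47 counts in DMSO and 11, 10 and 11 in NXP800 at 24 h (log2 fold change -1.87, SE 0.279, adjusted p = 2.94e-05). At 6 h it had 21, 19 and 26 counts in DMSO and 16, 23 and 19 in NXP800, and the groups overlapped.

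H4C15 had the most reads of the H4 genes. It was at 11.3, 10.3 and 13.3 CPM in DMSO and 12.1, 10.5 and 12.2 CPM in NXP800 at 6 h, and at 10.2, 9.89 and 10.03 and 10.4, 13.7 and 12.2 CPM at 24 h. The groups overlapped at 6 h and were apart at 24 h, where the fold change of 0.27 missed the threshold (adjusted p = 0.0641, or 0.0163 with the block). All 100-base windows of its short transcript are also found in H4C14, so reads there cannot be assigned with certainty. H4C14 had at most 1 count in any library, and RefSeq carries H4C15 16281 bases past the stem-loop. The counts of H4C15 may thus come mostly from the longer end, which was not tested. H4C8 was at 1.46, 0.851 and 1.61 CPM in DMSO and 3.62, 2.85 and 2.95 CPM in NXP800 at 6 h and rose (log2 fold change 1.26, SE 0.213, adjusted p = 1.19e-04). At 24 h it was at 1.44, 1.18 and 1.27 and 2.08, 1.57 and 1.82 CPM (log2 fold change 0.49, adjusted p = 0.0784, or 0.0337 with the block). H4C4 had 15, 18 and 13 counts in DMSO and 6, 10 and 7 in NXP800 at 6 h, and 12, 16 and 19 and 6, 4 and 4 at 24 h. It fell at 6 h (log2 fold change -1.01, SE 0.341, adjusted p = 0.0199) and at 24 h (log2 fold change -1.80, SE 0.374, adjusted p = 6.67e-04), with no overlap at either time. The 6 h call was lost without DMSO 6 h replicate 2 (-0.88), NXP800 6 h replicate 1 (-0.87) or NXP800 6 h replicate 3 (-0.95). With DESeq2 (adjusted p = 0.123) or with no filter on low counts (adjusted p = 0.0597) it was lost as well.

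The genes were then counted by their annotated 3′ end. Of the 7 genes extended in RefSeq 4 rose and 0 fell at 6 h, and 3 rose and 0 fell at 24 h, and 0 also fell at an unadjusted p below 0.05 in edgeR or by DESeq2. Of the 5 tested genes extended in GENCODE alone 4 rose at 6 h, while at 24 h 1 rose and 2 fell. Of the 22 short genes 5 rose and 1 fell at 6 h, and 1 rose and 7 fell at 24 h. Without the replicate block, their rises at 6 h (22.7%) and falls at 24 h (31.8%) were near the 25% and 28.6% of all genes tested. Their falls at 6 h and rises at 24 h were 4.5% each, beside 27.8% and 27.5%. Of the RefSeq-extended genes 57.1% rose at 6 h and 42.9% at 24 h. Of those extended in GENCODE alone 80% rose at 6 h, while 20% rose and 40% fell at 24 h. With the replicate block, H2AC11 and H3C4 joined the short genes that rose at 6 h, and H2BC18 the RefSeq-extended ones. At 24 h H2AC14 and H2AC20 joined the short genes that fell, and H1-2 the short genes that rose. H4C8 joined the rises of GENCODE alone at 24 h, and H4C15 those of the RefSeq-extended genes. The medians at 24 h were 0.37 for RefSeq-extended genes, -0.04 for GENCODE alone and -0.40 for short genes. These are counts of genes chosen by annotation, and the difference between the classes was not tested. The classes also differ in family, since all RefSeq-extended genes but H3C6 and H4C15 are H2B genes.

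In summed levels the short genes without H1-2 were at 25.1, 26.3 and 28.5 CPM in DMSO and 20.1, 17.02 and 17.8 CPM in NXP800 at 24 h. The RefSeq-extended genes were at 177, 171 and 184 and 218, 194 and 201 CPM. The short sum lay lower and the extended sum higher in every NXP800 library (0.687-fold and 1.15-fold, exact permutation p = 0.1 for each). H2BC12 was kept in the extended sum and made up most of it. It was at 144, 136 and 147 CPM in DMSO and 171, 139 and 149.6 CPM in NXP800 at 24 h, with overlap. With H1-2 the sum of all 51 short genes overlapped between the groups (0.925-fold). At 6 h the short sum without H1-2 was 1.33-fold and the extended sum 1.25-fold that of DMSO, both without overlap.

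**Figure D3:**
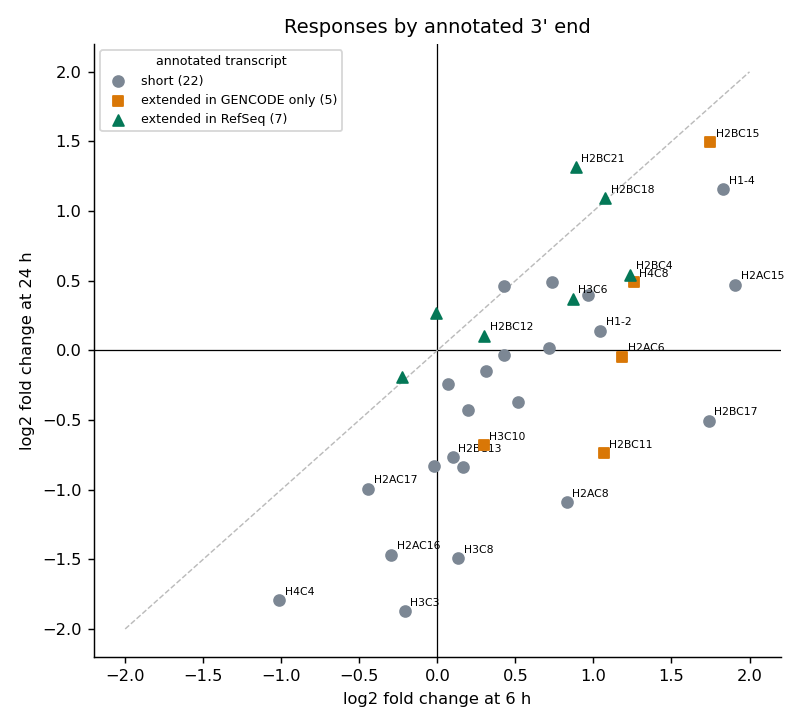
Log2 fold change at 6 h (x axis) against that at 24 h (y axis) for the 34 tested histone genes, marked by annotated 3′ end, with names at genes called at either time and a dashed line where both are equal. Of the 7 genes extended in RefSeq 0 were called lower at either time, and they lie on both sides of the line, with H2BC4, H2BC12 and H3C6 below it, while 7 of the 22 short genes were called lower at 24 h.

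RNAs made without a poly(A) tail were also looked at. Of 26 such RNAs listed, 7 passed the filter. MALAT1 held 363 of the 522 counts on the list in DMSO 6 h replicate 1, and RN7SL1 1070 of 1525 in DMSO 24 h replicate 2. The list is thus led by few genes, and how far such RNA was captured was not tested. RN7SK rose at both times (1.51 and 3.40), RPPH1 fell at both (-1.38 and -2.40) and MALAT1 rose at 24 h (1.14), with no other call. The 6 h call of RN7SK was lost without NXP800 6 h replicate 1 (1.06), and that of MALAT1 without NXP800 24 h replicate 2 (0.68). The summed level of the list overlapped between NXP800 and DMSO at both times (exact permutation p = 0.4 and 0.5). Its part in the histone results was not tested.

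Many H2A and H2B genes lie head to head, so that 1 short stretch holds the promoters of both. In 11 such pairs the starts are 193 to 247 bases apart. All 11 stretches hold a CCAAT box, 9 a TATAAA box and 9 the octamer ATTTGCAT, searched on both strands. Over the promoter windows of RefSeq (250 bases before to 50 after a start), CCAAT was in 52 of the 61 histone genes that have one (85.2%) and in 34.6% of 35116 genes. TATAAA was in 67.2% and 11.5%, and the octamer, which Oct-1 binds, in 41.0% and 1.77%. The octamer was in 11 of 15 H2A and 14 of 17 H2B promoters and in none of the H1, H3 and H4 promoters.

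Both genes of a pair were tested in 7 pairs, and 5 of these had a ratio of H2B to H2A reads that stood apart between the groups at 1 of the times. The stretches of 4 of these 5 are shown, chosen after the values were seen. The fifth pair, H2BC13 and H2AC13, is not printed. The 4 stretches are given from GRCh38 on the plus strand, with these 3 motifs in capitals on either strand. Overlapping motifs run together.

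H2AC17 (left, minus strand) and H2BC17, chr6:27893186-27893424: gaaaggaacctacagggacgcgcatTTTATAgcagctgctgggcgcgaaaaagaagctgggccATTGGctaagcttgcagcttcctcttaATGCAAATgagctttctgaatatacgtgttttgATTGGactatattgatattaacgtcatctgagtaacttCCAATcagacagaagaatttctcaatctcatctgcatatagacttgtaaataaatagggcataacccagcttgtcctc

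H2BC11 (left, minus strand) and H2AC11, chr6:27132796-27133042: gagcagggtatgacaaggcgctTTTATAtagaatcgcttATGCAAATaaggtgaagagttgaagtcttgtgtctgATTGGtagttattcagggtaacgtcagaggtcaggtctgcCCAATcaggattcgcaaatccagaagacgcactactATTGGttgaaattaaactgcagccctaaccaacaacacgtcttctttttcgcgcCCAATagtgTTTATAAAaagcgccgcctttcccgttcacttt

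H2BC21 (left, minus strand) and H2AC20, chr1:149886683-149886917: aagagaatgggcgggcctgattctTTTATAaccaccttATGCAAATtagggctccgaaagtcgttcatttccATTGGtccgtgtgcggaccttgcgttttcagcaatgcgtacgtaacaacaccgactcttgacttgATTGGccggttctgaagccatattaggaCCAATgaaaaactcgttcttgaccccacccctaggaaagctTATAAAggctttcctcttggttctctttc

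H2AC15 (left, minus strand) and H2BC15, chr6:27838376-27838568: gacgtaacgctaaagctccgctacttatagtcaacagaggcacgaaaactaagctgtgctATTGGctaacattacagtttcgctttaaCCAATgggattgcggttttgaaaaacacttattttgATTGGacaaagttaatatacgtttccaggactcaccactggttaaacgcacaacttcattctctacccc

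The ratio of H2B to H2A reads in a library compares the genes of a pair without the scaling between libraries. For H2BC17 and H2AC17 it was 0.56, 0.311 and 0.659 in DMSO and 3.16, 1.87 and 1.73 in NXP800 at 6 h, and 0.548, 0.493 and 0.442 and 0.6098, 0.946 and 0.525 at 24 h. The pair shifted toward H2B at 6 h without overlap, and the 24 h groups overlapped. For H2BC11 and H2AC11 the ratio was 2.87, 2.79 and 3.83 in DMSO and 5.63, 4.59 and 4.39 in NXP800 at 6 h, again apart, and 2.42, 4.55 and 2.72 and 2.03, 2.64 and 1.32 at 24 h, with overlap. For H2BC21 and H2AC20 it was 4.03, 2.87 and 4.73 and 6.89, 4.52 and 7.34 at 6 h, and 1.99, 1.98 and 1.88 and 5.55, 7.98 and 6.37 at 24 h. This pair overlapped at 6 h and was apart at 24 h, when H2BC21 rose and H2AC20 lay lower.

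For H2BC15 and H2AC15 the ratio was 2, 3.8 and 5.25 in DMSO and 2.48, 3.71 and 2.92 in NXP800 at 6 h, with overlap, since both genes rose. At 24 h it was 3.89, 2.15 and 2.38 and 5.46, 6.33 and 4.88, apart. H2BC13 and H2AC13 also stood apart at 24 h, at 0.8605, 0.769 and 0.865 in DMSO and 0.622, 0.484 and 0.511 in NXP800. The ratios of H2BC4 to H2AC6 and of H2BC8 to H2AC8 overlapped at both times. In all, 2 of 7 ratios were apart at 6 h and 3 of 7 at 24 h, each with an exact permutation p of 0.1 (two-sided, the smallest possible), or 0.350 at 6 h and 0.233 at 24 h when adjusted over the 7 pairs.

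**Figure D4:**
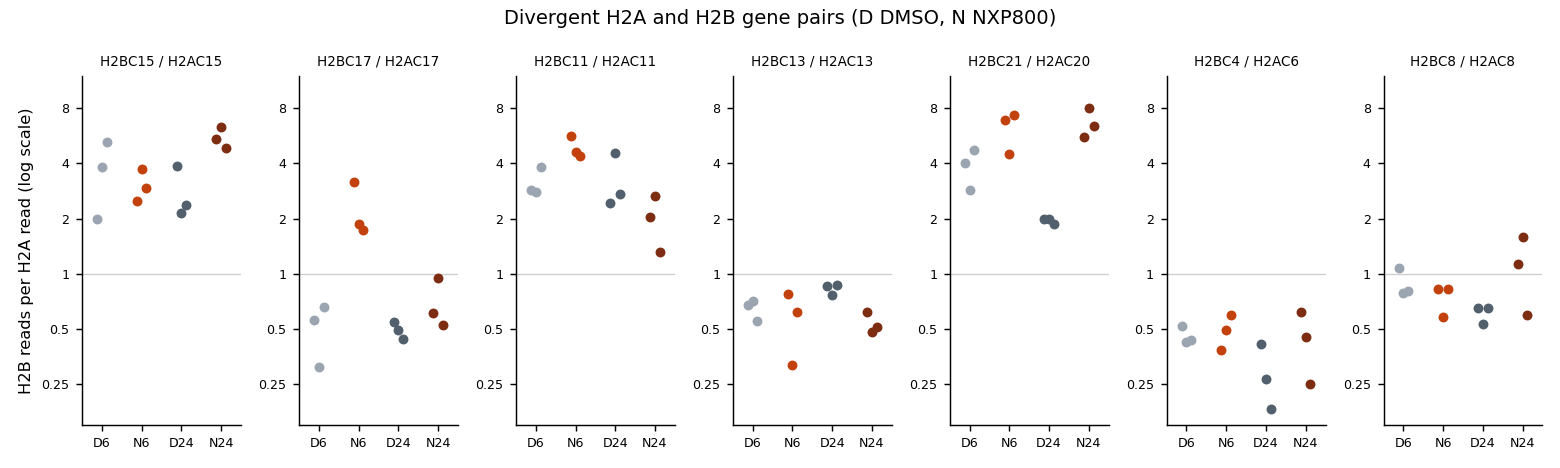
Reads on the H2B gene per read on the H2A gene (y axis, log scale) in each library of the 4 groups (x axis: D DMSO, N NXP800, with the hours) for the 7 head-to-head pairs with both genes tested. At 6 h the NXP800 libraries lie above DMSO for H2BC17 and H2BC11, and at 24 h above for H2BC15 and H2BC21 and below for H2BC13.

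In the list of 22 genes of the histone locus body and 3′ processing, 4 rose and 9 fell at 6 h, and 4 rose and 9 fell at 24 h. These are 18.2% and 40.9% at each time, beside 25% and 27.8% of all genes tested at 6 h and 27.5% and 28.6% at 24 h, against which the lists below are also set. SLBP, which binds the stem-loop, was at 125, 129 and 125 CPM in DMSO and 77.96, 79.9 and 78.8 CPM in NXP800 at 6 h, and at 116, 120.3 and 107 and 83.6, 78.9 and 69.8 CPM at 24 h. It fell at both times (log2 fold change -0.68, SE 0.0677, adjusted p = 5.18e-07 at 6 h and log2 fold change -0.56, SE 0.0679, adjusted p = 3.19e-06 at 24 h), with no overlap. NPAT, the activator of histone transcription, rose at 6 h (log2 fold change 0.27, SE 0.0924, adjusted p = 0.0209) and not at 24 h (-0.07, adjusted p = 0.5403). The 6 h call of NPAT was lost without DMSO 6 h replicate 2 (0.23) or NXP800 6 h replicate 2 (0.22). CCNE1, CCNE2 and CDK2, whose products phosphorylate NPAT, fell by 0.86, 0.91 and 0.40 on the log2 scale at 6 h and by 0.53, 0.81 and 0.94 at 24 h. SRRT, which links the cap-binding complex to 3′ processing, fell at both times (-0.72 and -0.25, or -0.16 with library size only at 24 h). NCBP2 (0.29 and 0.29), a subunit of the cap-binding complex, and ZNF473 (0.21 and 0.34), a zinc finger protein that works with SLBP, rose at both. Without DMSO 6 h replicate 1 (0.20), DMSO 6 h replicate 2 (0.18) or NXP800 6 h replicate 1 (0.19), or when low genes were kept, the 6 h call of ZNF473 was lost. HINFP, a factor for H4 promoters, and CPSF2, a subunit of the cleavage complex, rose at 24 h (0.34 and 0.34).

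Of 23 genes of histone mRNA decay, 8 rose and 5 fell at 6 h (34.8% and 21.7%), and 8 rose and 8 fell at 24 h (34.8% each), not far from the shares over all genes. Those that rose at both times include SMG1 (0.59 and 0.39), a kinase that phosphorylates UPF1, and the uridylyl transferases TUT7 (0.44 and 0.43) and TUT1 (0.47 and 0.38). The 24 h call of SMG1 was lost without DMSO 24 h replicate 3 (0.31) or NXP800 24 h replicate 2 (0.25). DCP1A rose at both times (0.63 at 6 h). DCP2, the decapping enzyme, rose at 6 h (0.47) and fell at 24 h (-0.15), and this difference passed the test (adjusted p = 4.18e-05). The 24 h fall of DCP2 was lost with library size only (-0.062), with no filter on low counts, in the libraries of the time point alone, and without DMSO 24 h replicate 1 (-0.15), DMSO 24 h replicate 3 (-0.13), NXP800 24 h replicate 1 (-0.14) or NXP800 24 h replicate 3 (-0.13). The subunits LSM2 (-0.72 and -0.65) and LSM3 (-0.58 and -0.66) of the LSM ring fell at both times.

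The variant histones, which are made outside S phase or from polyadenylated mRNA, moved both ways. Of 12 tested of 18, 4 rose and 6 fell at 6 h, and 3 rose and 6 fell at 24 h. H1-10, a linker histone, rose at both times (0.77 and 0.33). H2AZ1 (-0.28 and -0.64), H3-3A (-0.47 and -0.50) and the lowly counted H2AX (-1.26 and -0.98) fell at both. The call of H2AX was lost with DESeq2 at both times, with library size only and with no filter on low counts at 24 h, and at 6 h without DMSO 6 h replicate 1 (-0.89), NXP800 6 h replicate 1 (-1.16) or NXP800 6 h replicate 3 (-1.07). At 24 h it was lost without DMSO 6 h replicate 3 (-0.98), NXP800 6 h replicate 1 (-0.98), NXP800 6 h replicate 3 (-0.98), DMSO 24 h replicate 1 (-0.76), DMSO 24 h replicate 2 (-0.94), NXP800 24 h replicate 2 (-0.72) or NXP800 24 h replicate 3 (-1.06). H3-3B, the second gene of the replacement histone H3.3, had 0.11 and 0.08 and passed neither test (adjusted p = 0.175 and 0.338). CENPA, the centromeric H3, rose at 6 h (0.34) and fell at 24 h (-1.38), while MACROH2A2 fell (-0.75) and then rose (0.26), and both differences passed the test. The 24 h call of MACROH2A2 was lost in the libraries of the time point alone and without DMSO 6 h replicate 1 (0.26), NXP800 6 h replicate 1 (0.26), DMSO 24 h replicate 1 (0.22), DMSO 24 h replicate 2 (0.26) or NXP800 24 h replicate 3 (0.12).

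The chaperones that carry histones to DNA were mostly lower at 24 h. Of 28 genes, 3 rose and 13 fell at 6 h (10.7% and 46.4%), and 2 rose and 20 fell at 24 h (7.14% and 71.4%). ASF1B (-0.71 and -1.09) and CHAF1A (-0.42 and -0.75), which hand new H3 and H4 to replicated DNA, fell at both times. So did TONSL (-0.82 and -1.46) and RBBP4 (-0.81 and -0.42), and HJURP, the chaperone of CENPA, fell at 24 h (-1.24). ASF1A (0.28 and 0.26) and UBN2 (0.56 and 0.69), which act outside S phase as well, rose at both times. The 24 h call of ASF1A was lost without DMSO 24 h replicate 2 (0.22) or NXP800 24 h replicate 1 (0.16).

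The S phase genes, which serve DNA replication, were mostly lower at both times. Of 30 genes, 0 rose and 22 fell at 6 h (73.3%), and 0 rose and 28 fell at 24 h (93.3%). At an unadjusted p below 0.05 in edgeR and in DESeq2's calls 0 rose as well. The medians were -0.49 and -0.93, beside 0.47 and -0.10 for the 34 histone genes. PCNA, the sliding clamp of DNA polymerase, was at 315, 330.3 and 302 CPM in DMSO and 153, 179 and 173 CPM in NXP800 at 6 h, and at 259, 268 and 233 and 106, 103 and 109.7 CPM at 24 h. It fell at both times (-0.91 and -1.25), and no libraries of the groups overlapped. The largest falls were those of GINS1 (-1.04) and PCNA at 6 h, and of E2F2 (-2.67), TK1 (-2.23) and TYMS (-1.87) at 24 h. In bulk RNA, fewer cells in S phase and less RNA per cell cannot be told apart, and the part of the S phase genes in the histone results was not tested.

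**Figure D5:**
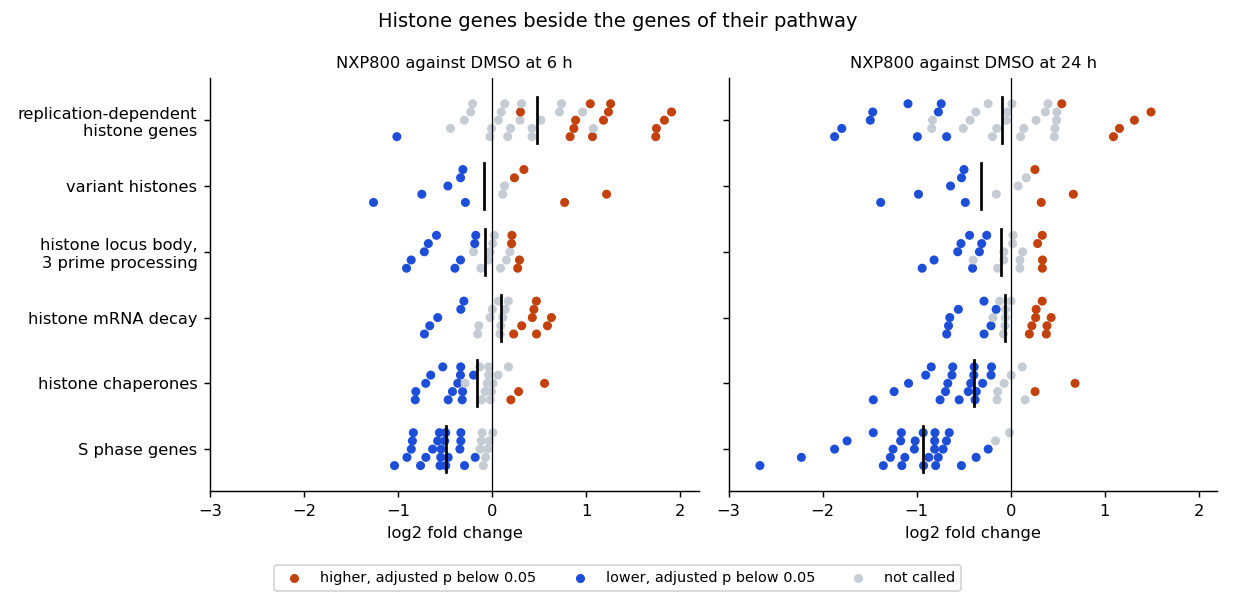
Log2 fold change of NXP800 against DMSO (x axes) at 6 h and 24 h for every tested gene of 6 lists (y axis), coloured by call, with a black line at each median. At 6 h the histone genes have a median of 0.47 and the S phase genes -0.49, and at 24 h the medians are -0.10 and -0.93.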

How the data were processed

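RNA of MNNG/HOS cells was measured in 12 libraries, 3 for each of DMSO and NXP800 at 6 h and 24 h. The labels' processing notes and the study's methods name fastp 0.20.1 for trimming, STAR 2.7.5a for alignment to hg38 and HTSeq 0.12.4 for counting on RefSeq genes. The authors deposited the raw counts of each gene, without any normalization. The kit keeps the strand, but the strand setting and the rule for overlapping genes are not given in the sources used here. Counter lines without a gene (no feature 2.73% to 8.14%, ambiguous 2.10% to 2.43%, not unique 1.86% to 3.37% of read pairs) entered neither library sizes nor tests.

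The analysis used R 4.3.3, edgeR 4.0.16 and, as an alternative, DESeq2 1.42.0. Genes passing filterByExpr (15979 of 43236) were scaled by TMM and tested with the quasi-likelihood test in 1 model of the 4 groups. The common dispersion was 0.00723, and at these depths the spread between replicates sets the precision of all but the low genes. Single values per library were compared by exact permutation tests, which with 3 against 3 cannot go below 0.1. On simulated counts with 2-fold changes at 6 h edgeR recovered 71 of 100 genes of 20 to 200 counts and 97 of 100 above, with 15 other calls among 15627 genes.

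The main fit and the permutation tests did not use the replicate numbers, which the study's methods do not name as a block. The numbers do pair the libraries by the check made here, so the fit with the block is given for the counts and named calls of histone genes that it changes. Counts of the other lists are given without it. Deviations from the group means correlated across genes with r of 0.159 to 0.329 between an NXP800 and a DMSO library that share a number, and with at most 0.0580 otherwise. The labels give nothing else on the pairing. Replicates differed by more than sampling noise in every group. Positions, 3′ ends, stem-loops and overlaps come from RefSeq (GRCh38.p14), GENCODE and hg38. The symbol pattern is that of the files, so 3 further genes that RefSeq names by the same pattern are not members.

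The members and lists were chosen with earlier results of these data known. Named were members of any family, with values in every library for the 3 tested members of each family with the highest mean CPM, the 3 largest called changes each way in each contrast at a mean log2 CPM of at least 0, 12 fixed genes, and some of the 3 largest called changes each way in each other list. Which of these, which other values per library and which RNAs without a poly(A) tail to print was decided with the values in view. Some genes that this rule names are not reported here. The alternatives were scaling by DESeq2's size factors or by library size, no filter, at least 10 counts in every library, a fit to 1 time point, the replicate block, each library left out, DESeq2's test, and an adjusted p below 0.01.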

Additional observations from a re-analysis of the deposited data

Results flagged for a closer look

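The responses of 9 histone genes differed between the time points by the test of the difference itself (edgeR's quasi-likelihood test, 24 h minus 6 h on the log2 scale). The difference was -2.24 for H2BC17 (adjusted p = 4.22e-04), -1.92 for H2AC8 (adjusted p = 6.65e-04) and -1.81 for H2BC11 (adjusted p = 2.03e-05). It was -1.23 for H2AC6 (adjusted p = 5.49e-04) and -0.90 for H1-2 (adjusted p = 0.0050002). Among the H3 genes it was -1.66 for H3C3 (adjusted p = 0.00564), -1.63 for H3C8 (adjusted p = 0.0165) and -0.98 for H3C10 (adjusted p = 0.0197). For H2AC16 it was -1.17 (adjusted p = 0.0268). All 9 differences were negative, and the part of the differing share of reads on no gene at the 2 time points was not tested.

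The calls of 3 of the 9 genes (H3C8, H3C10 and H2AC16) depend on single libraries, and they were also lost at an adjusted p below 0.01. For H2AC16 the call was lost with DESeq2 (adjusted p = 0.105) and with no filter on low counts (adjusted p = 0.0977) as well. That of H3C8 was lost without NXP800 6 h replicate 1 (-1.47), that of H3C10 without NXP800 6 h replicate 2 (-0.87) or DMSO 24 h replicate 3 (-0.76), and that of H2AC16 without DMSO 6 h replicate 1 (-1.17), NXP800 6 h replicate 2 (-1.17), NXP800 6 h replicate 3 (-1.13), DMSO 24 h replicate 3 (-1.01) or NXP800 24 h replicate 2 (-1.10), with the difference in brackets.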

How the results depend on the processing

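Among the counts of histone genes, the 1 that fell at 6 h became 0 with no filter on low counts, with at least 10 counts in every library, with DESeq2 and at an adjusted p below 0.01, and 0 to 2 when single libraries were left out. The 5 that rose at 24 h became 3 with at least 10 counts in every library, 3 in the libraries of the time point alone, 3 with DESeq2, 2 at an adjusted p below 0.01 and 8 with the replicate block, and 2 to 6 without single libraries. The 9 negative differences became 15 with the replicate block, and positive ones went from 0 to 1 with the block and 1 with no filter, and 0 to 1 without single libraries. Calls in the histone locus body list at 6 h went from 13 to 8 at an adjusted p below 0.01. With at least 10 counts in every library H4C4, H1-4 and H2BC18 were not tested, so they could not be called. The cause of the other changes was not tested. Counts of the other lists and of histone genes that rose at 6 h or fell at 24 h moved by less than 1.5 times in all settings run. The summed level at 6 h was 0.39 to 0.74 higher on the log2 scale in all settings, and at 24 h 0.068 to 0.20 higher, where library size alone gave 0.20. The replicate block raised the calls of 15 named results and lost none.

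Of 109 named results past the threshold none changed sign. When single libraries were left out, 20 of them lost the call, and 14 of 35 others gained one. Values that were not called crossed 0. Without single libraries H1-5 ran from -0.43 to 0.64 at 6 h and from -0.67 to 0.012 at 24 h, H2AC6 at 24 h from -0.19 to 0.062, H2AC11 at 24 h from -0.24 to 0.20, H2BC5 at 24 h from -0.32 to 0.020, H3C8 at 6 h from -0.023 to 0.29, and H4C15 at 6 h from -0.087 to 0.10. With library size only H2AC6 was at 0.047, H2AC11 at 0.055 and NPAT at 0.018 at 24 h. H4C15 at 6 h was at 0.0090 with DESeq2's size factors, 0.0091 with library size only, 0.010 with DESeq2 and 0.025 in the libraries of its time point. Depth limits the test most at genes with few counts in part of the libraries, such as H4C4 (4 to 19 counts), H1-4 (3 to 31) and H2BC18 (4 to 30).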

Other observations

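By position, the 5 tested genes on chromosome 1 had 1 rise and no fall at 6 h, and 2 rises and no fall at 24 h. At an unadjusted p below 0.05 in edgeR 0 of the 5 fell at 6 h and 1 (H2AC20) at 24 h, and DESeq2 called no fall at either time. With the replicate block H2BC18 joined the rises at 6 h and H4C15 those at 24 h, and H2AC20 fell at 24 h (adjusted p = 0.00484). The 29 tested genes on chromosome 6 had 12 rises and 1 fall at 6 h, and 3 rises and 9 falls at 24 h. Without the block, the falls at 24 h were 31.03% of these genes, beside 28.6% of all genes tested, and the rises at 6 h 41.4%, beside 25%. With it H2AC11 and H3C4 joined the rises at 6 h, H1-2 and H4C8 the rises at 24 h, and H2AC14 the falls at 24 h. Of the tested genes, 4 of 5 on chromosome 1 and 3 of 29 on chromosome 6 share over 10% of the 100-base windows of their short transcript with another histone gene, so the groups also differ in how uniquely reads can be placed. The chromosome 1 genes H2BC18, H2BC21 and H4C15 are also extended in RefSeq, and the rises there without the block were those of H2BC21 and H2BC18. The difference between the chromosomes was not tested.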
